A study of Homo sapiens with 15 samples.

Results

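Of the 15 RNA-seq libraries of the series, 6 set a block of EGFR trafficking directly against a block of EGFR kinase activity. They came from MDA-MB-468, a human triple-negative breast cancer line with very high EGFR expression. The 3 cSNX1.3 libraries and the 3 erlotinib libraries were chosen by the treatment in their labels, and no measured value was used. All 6 cultures were serum starved for 12 h and then stimulated with EGF at 10 ng/mL for 12 h. One group received the peptide cSNX1.3 at 10 µM, and the other received erlotinib at 15 µM. The doses differ, so what follows compares these 2 treatments as given and not the agents at matched strength. The cells of both groups carried their own EGFR, and no vehicle or control-peptide library is included. Effects of either agent outside EGFR cannot be told apart here from those through it. The EGF-alone libraries entered the estimate of the spread between replicates but no fold change. A difference therefore does not say which of the 2 treatments moved a gene away from EGF alone.

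EGFR is a receptor tyrosine kinase. After EGF binds, it signals through RAS, RAF, MEK and ERK and through PI3K and AKT, and ERK output is read in short-lived transcripts such as FOS, EGR1 and DUSP6. Erlotinib occupies the ATP pocket of the kinase and stops this signaling at its source. Part of the internalized receptor travels back through the Golgi and endoplasmic reticulum toward the nucleus, where EGFR can act as a transcriptional co-regulator. The peptide cSNX1.3 was designed to block the binding of EGFR to Sorting Nexin 1 (SNX1), a protein of that retrograde route. A comparison of both treatments asks which functions separate blocked trafficking from blocked kinase.

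The libraries held 22915676 to 32736717 counted read pairs each. On the 500 most variable genes, the first principal component took 93.7% of the variance. It placed the 3 cSNX1.3 libraries at 31.6 to 33.1 and the 3 erlotinib libraries at −33.5 to −30.3. Distances between libraries of different treatment were 63.0 to 67.7, and those within a treatment were 12.7 to 16.8, both in log2 units over those genes. No library stood apart from its group. All 7 epithelial markers were present. Their summed level was 24250 to 26250 CPM (counts scaled to library size) with cSNX1.3 and 14720 to 15670 CPM with erlotinib. Markers of blood, stromal and endothelial cells summed to far less than the epithelial ones, but some were detected. In both groups NCAM1 (lymphoid), CD14, CSF1R and ITGAM (myeloid) and COL1A1 (fibroblast) passed 10 counts in a library. The endothelial markers CDH5, KDR and PECAM1 did so too, and PDGFRB and VWF did with erlotinib only. The 10 lymphoid markers summed to 1.3 to 1.94 CPM with cSNX1.3 and 3.20 to 3.84 CPM with erlotinib. Of these 10, 5 were at 0 in every cSNX1.3 library and 4 in every erlotinib library. The 6 myeloid markers summed to 34.6 to 38.6 and 61.9 to 69.2 CPM, the 6 fibroblast markers to 17.9 to 21.2 and 11.7 to 16.4 CPM, and the 4 endothelial markers to 8.55 to 9.20 and 13.3 to 16.2 CPM. Of the 6 myeloid markers, 3 had at most 3 counts in every library of each group. The part of these levels in any result was not tested.

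Most of the genes tested differed between the 2 treatments. Of 15738 genes tested, 8824 differed at an adjusted p under 0.05, a share of 56.1%. Of all genes tested, 27.6% were called higher with cSNX1.3 (4336 genes) and 28.5% higher with erlotinib (4488 genes). When the difference also had to pass 2-fold, 7.64% were higher with cSNX1.3 (1203 genes) and 10.3% higher with erlotinib (1627 genes). The differences reached over 4-fold in 331 genes higher with cSNX1.3 and in 425 higher with erlotinib, and over 16-fold in 49 and 46. The median absolute log2 fold change was 0.44 over all genes tested. In 60.3% of the genes the 3 libraries of one treatment lay wholly above the 3 of the other. All log2 fold changes below are cSNX1.3 minus erlotinib, so a positive value means a higher level with cSNX1.3. With library totals alone in place of normalization by TMM (trimmed mean of M-values), the median of all genes moved from −0.01 to −0.18 and the split became 2923 genes higher with cSNX1.3 against 5852. Changes are given relative to the TMM scale, and group directions that depend on it are named. Members of a list are read against the shares above, since most genes were called.

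**Figure D1:**
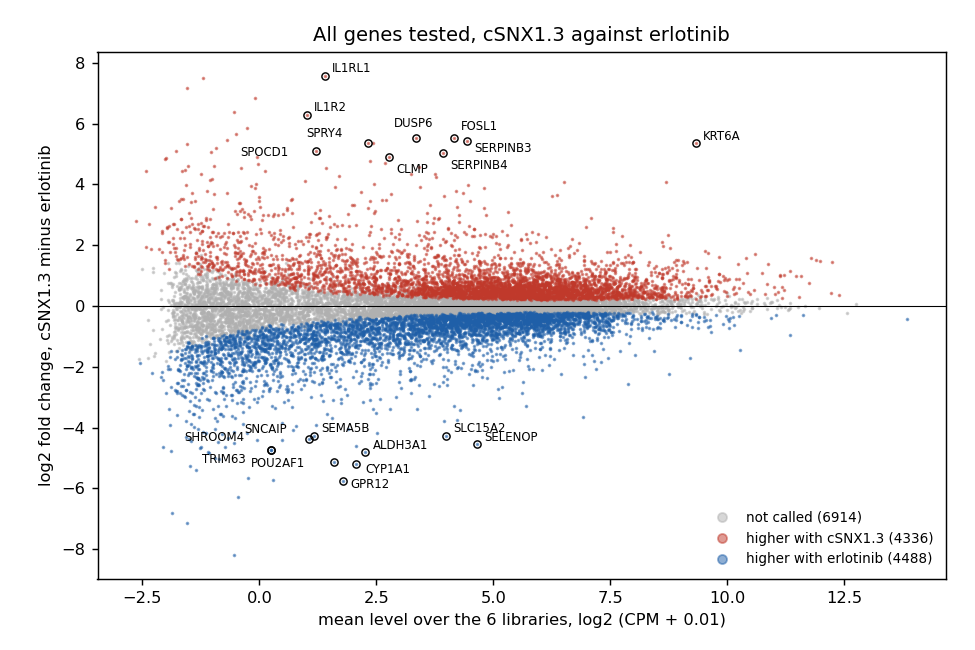
Log2 fold change (cSNX1.3 minus erlotinib) of the 15738 genes tested against their mean level over the 6 libraries (log2 of CPM plus 0.01). Red points are the 4336 genes called higher with cSNX1.3, blue points the 4488 called higher with erlotinib, and grey points were not called. Circles name the 10 largest called differences in each direction among protein-coding genes averaging 1 CPM or more whose groups did not overlap.

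To describe functions, 38 lists with 1032 distinct genes were drawn up, of which 951 were tested. In 29 lists more members were higher with cSNX1.3 than with erlotinib, and in 8 the reverse held. With library totals these numbers were 22 and 15. Over all genes the shares were 27.6% higher with cSNX1.3 and 28.5% higher with erlotinib. The lists were drawn up with earlier results of these data known, so the tally and the order of medians depend on that choice. The lists with the highest medians held ERK-dependent transcripts, serpins and plasminogen genes, keratins, ERK feedback inhibitors and glycolytic genes. The lists with the lowest medians held interferon-stimulated genes, aryl hydrocarbon receptor genes, antioxidant genes and class I antigen presentation genes. Lists of ribosomal proteins, respiratory chain subunits, RAS-ERK cascade members and sorting nexins lay near 0.

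**Figure D2:**
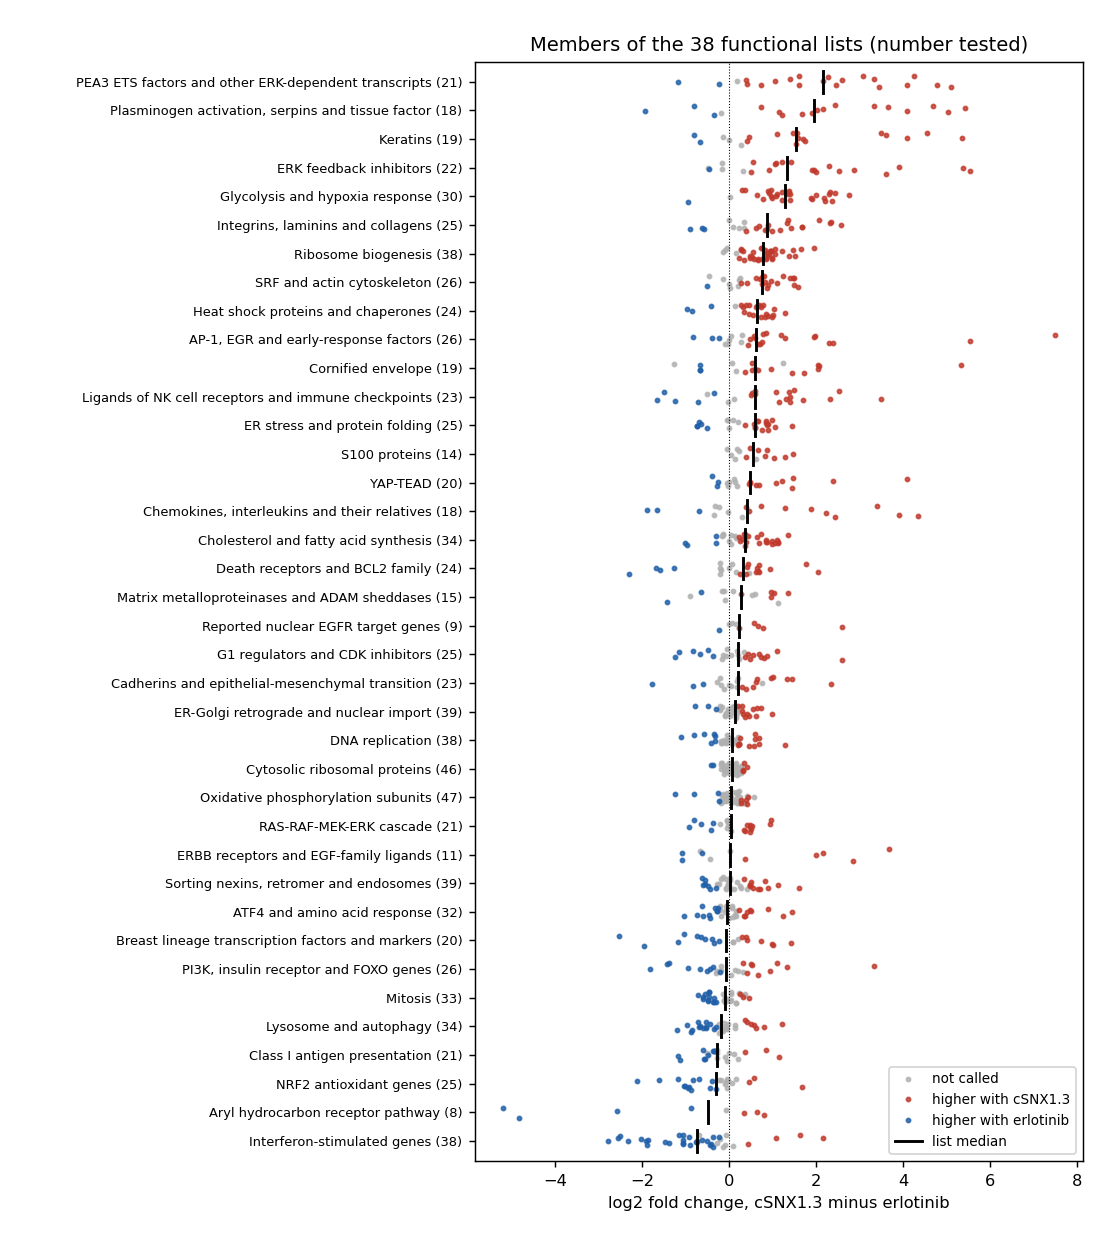
Log2 fold change (cSNX1.3 minus erlotinib) of every tested member of 38 functional lists, 1 row per list with the number tested in brackets, ordered by the list median (black bar). Medians ran from −0.73 for interferon-stimulated genes to 2.16 for the ERK-dependent transcripts, and the point above 7 is a fitted value for EGR4, which had 0 counts in the erlotinib libraries.

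Transcripts that report ERK activity were mostly higher with cSNX1.3. On a list of ERK feedback inhibitors and related phosphatases, 17 of 22 tested were higher with cSNX1.3 and 1 was higher with erlotinib. These counts stand beside 27.6% and 28.5% of all genes, and the list median was 1.32. DUSP6, the cytoplasmic phosphatase that dephosphorylates ERK, measured 22.5, 19.0 and 18 CPM with cSNX1.3 and 0.587, 0.408 and 0.246 CPM with erlotinib. The groups did not overlap, and the log2 fold change was 5.54, SE 0.21 (adjusted p = 8.2e-12). SPRY4, a Sprouty inhibitor of receptor tyrosine kinase signaling, measured 8.60, 10.3 and 10.2 CPM with cSNX1.3 and 0.293, 0.326 and 0.0703 CPM with erlotinib (log2 fold change 5.38, SE 0.29, adjusted p = 3.6e-10). DUSP4, a nuclear ERK phosphatase, measured 140.4, 142 and 142 CPM with cSNX1.3 and 11.2, 11.7 and 12 CPM with erlotinib (log2 fold change 3.61, SE 0.09, adjusted p = 1.8e-13). In each of these 3 genes every cSNX1.3 library was several-fold above every erlotinib library. ERRFI1, which encodes the EGFR kinase inhibitor MIG6, measured 229, 243 and 251 CPM with cSNX1.3 and 30.7, 35.9 and 31.7 CPM with erlotinib. SPRED2, which holds RAS and RAF in check, measured 41.7, 39.7 and 41.3 CPM with cSNX1.3 and 7.04, 7.14 and 7.0 CPM with erlotinib. Both were also higher with cSNX1.3 (log2 fold change 2.88, SE 0.10 and log2 fold change 2.54, SE 0.10), with DUSP5 (2.30), SPRED1 (2.0) and SPRY2 (1.96) behind them. The exception was DUSP16, a phosphatase of JNK and p38 rather than ERK, with 44.8, 49.0 and 47.9 CPM with cSNX1.3 and 62.0, 69.3 and 62.7 CPM with erlotinib (log2 fold change −0.45, SE 0.08, adjusted p = 2.8e-04).

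Early-response transcription factors divided in the same direction with more exceptions. Of 26 AP-1, EGR and related factors tested, 17 were higher with cSNX1.3 and 3 with erlotinib, with a median of 0.63. FOSL1 encodes FRA-1, an AP-1 subunit whose gene depends on sustained ERK activity. It measured 32.9, 34.8 and 37.0 CPM with cSNX1.3 and 0.734, 0.734 and 0.774 CPM with erlotinib, with a log2 fold change of 5.54, SE 0.14 (adjusted p = 1.9e-13). EGR4 had no count in any erlotinib library and 1.04, 0.786 and 0.725 CPM with cSNX1.3, at least 24.3-fold higher with cSNX1.3 against a floor of 3 counts over the erlotinib group. FOS measured 17.9, 19.8 and 19.2 CPM with cSNX1.3 and 3.58, 4.20 and 6.72 CPM with erlotinib (log2 fold change 1.98, SE 0.22, adjusted p = 7.6e-06), and MAFF measured 49.4, 61.3 and 56.7 CPM with cSNX1.3 and 12.4, 9.30 and 12 CPM with erlotinib (log2 fold change 2.31, SE 0.13, adjusted p = 4.8e-10). All cSNX1.3 libraries lay above all erlotinib libraries for both. JUN (1.29), KLF6 (1.21) and MYC (0.77) were higher with cSNX1.3 by smaller steps. NR4A2, an orphan nuclear receptor, went the other way with 6.98, 6.42 and 7.32 CPM with cSNX1.3 and 10.8, 12.8 and 13 CPM with erlotinib (log2 fold change −0.82, SE 0.15, adjusted p = 2.4e-04). The other 6 members, FOSL2 (−0.09) among them, were not called.

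EGR1, the zinc finger factor that serves as a standard ERK readout, measured 34.9, 41.5 and 46.1 CPM with cSNX1.3 and 7.45, 10.4 and 14 CPM with erlotinib (log2 fold change 1.95, SE 0.23, adjusted p = 2.6e-05). Its promoter is shown because it carries CArG boxes, the sites of serum response factor (SRF) through which ERK reaches early genes, and that of FLNA is shown for the actin-binding filamin A of the SRF group described later. Sequences are those of RefSeq on GRCh38.p14, the 250 bases before the annotated start, read 5′ to 3′ on the gene's strand, with CArG boxes in capitals. EGR1 lies on chromosome 5 at chr5:138465229-138465478 (plus strand), with boxes beginning 105 and 83 bases before the start. FLNA lies on chromosome X at chrX:154374635-154374884 (minus strand), with a box beginning 94 bases before the start.
EGR1: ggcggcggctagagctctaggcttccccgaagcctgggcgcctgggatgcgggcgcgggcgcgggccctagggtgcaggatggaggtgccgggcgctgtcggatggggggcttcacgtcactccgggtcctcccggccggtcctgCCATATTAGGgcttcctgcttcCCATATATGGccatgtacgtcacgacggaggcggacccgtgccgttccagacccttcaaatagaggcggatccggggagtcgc
FLNA: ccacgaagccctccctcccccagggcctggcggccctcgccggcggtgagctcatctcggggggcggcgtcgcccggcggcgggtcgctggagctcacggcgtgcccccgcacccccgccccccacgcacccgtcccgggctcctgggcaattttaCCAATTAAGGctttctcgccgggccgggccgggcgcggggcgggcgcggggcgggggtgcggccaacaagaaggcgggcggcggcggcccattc
A CArG box was found on either strand in 1.05% of the 11421 promoter windows of genes tested. It was found in 2 of the 21 windows of the early-response list and in 7 of the 22 windows of the SRF list. These matches describe letters only.

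Of the 38 lists, that of transcripts further along the ERK pathway had the highest median, 2.16. It was drawn up with earlier results of these data known and holds SPOCD1, one of the 10 largest differences toward cSNX1.3. Of 21 tested, 18 were higher with cSNX1.3 and 2 with erlotinib, beside 27.6% and 28.5% of all genes. The 3 PEA3 factors, ETS-domain proteins whose genes are switched on by ERK, were all higher. ETV5 measured 26.1, 24.4 and 27.4 CPM with cSNX1.3 and 1.32, 1.47 and 1.3 CPM with erlotinib (log2 fold change 4.25, SE 0.13, adjusted p = 1.6e-12). ETV4 measured 41.1, 42.3 and 41.2 CPM with cSNX1.3 and 4.55, 2.98 and 3.80 CPM with erlotinib (log2 fold change 3.44, SE 0.13, adjusted p = 8.6e-12), and ETV1 had a log2 fold change of 3.32, SE 0.22. SPOCD1 measured 4.59, 4.39 and 4.46 CPM with cSNX1.3 and 0.147, 0.0816 and 0.141 CPM with erlotinib (log2 fold change 5.10, SE 0.26), and HMGA2, an architectural chromatin protein, measured 9.82, 9.19 and 10.6 CPM with cSNX1.3 and 0.528, 0.367 and 0.141 CPM with erlotinib (log2 fold change 4.78, SE 0.26). The erlotinib libraries were below 1 CPM for both. PHLDA1 (3.09), EPHA2 (2.46) and PLAUR (2.16) followed. GDF15, a stress cytokine, was among the 2 exceptions, with 1.04, 0.414 and 0.471 CPM with cSNX1.3 and 1.17, 1.71 and 1.41 CPM with erlotinib (log2 fold change −1.17, SE 0.34, adjusted p = 0.00884).

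Receptors and ligands of the ERBB family did not move as a block. Of 11 tested, 5 were higher with cSNX1.3 and 3 with erlotinib. The shares were 45.5% and 27.3%, beside 27.6% and 28.5% of all genes, and with library totals the counts were 4 and 4. The median was 0.02, or −0.15 with library totals and 0.10 with offsets for GC content and length. Of the ligands, 4 were higher with cSNX1.3. AREG, amphiregulin, measured 13.1, 12.9 and 13.3 CPM with cSNX1.3 and 0.998, 1.02 and 1.06 CPM with erlotinib (log2 fold change 3.67, SE 0.18, adjusted p = 1.7e-10). HBEGF, heparin-binding EGF, measured 12.9, 15.6 and 12.5 CPM with cSNX1.3 and 1.73, 1.88 and 2.11 CPM with erlotinib (log2 fold change 2.84, SE 0.16, adjusted p = 4.8e-10). EREG (log2 fold change 2.15, SE 0.55) and EPGN (log2 fold change 2.0, SE 0.53) were called in the same direction at levels below 1 CPM in all 6 libraries. Betacellulin, BTC, was higher with erlotinib at 2.57, 2.36 and 2.86 CPM with cSNX1.3 and 4.72, 6.12 and 5.77 CPM with erlotinib (log2 fold change −1.08, SE 0.17, adjusted p = 6.2e-05), and TGFA was not called (0.02).

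EGFR itself, the target of both agents, measured 5664, 6449 and 6122 CPM with cSNX1.3 and 4517, 4974 and 4553 CPM with erlotinib. Its log2 fold change was 0.38, SE 0.11 (adjusted p = 0.0102), with no overlap between groups. This call was not kept with library totals (0.21), with offsets for GC content and length (0.25) or without cSNX1.3 replicate 2 (0.33). ERBB2, which encodes HER2, measured 36.6, 56.3 and 50.8 CPM with cSNX1.3 and 104, 92 and 109 CPM with erlotinib (log2 fold change −1.09, SE 0.13, adjusted p = 4.4e-06). ERBB3, the kinase-impaired partner, measured 60.0, 71.4 and 66.4 CPM with cSNX1.3 and 101, 99.1 and 103 CPM with erlotinib (log2 fold change −0.62, SE 0.09, adjusted p = 3.1e-05). Both receptors were lower with cSNX1.3 in every library than with erlotinib. ERBB4 was not tested, with 0 to 2 counts in each of the 6 libraries. SNX1, whose contact with EGFR the peptide targets, measured 40.4, 41.4 and 44.6 CPM with cSNX1.3 and 60.1, 54.0 and 55.9 CPM with erlotinib (log2 fold change −0.43, SE 0.09, adjusted p = 5.1e-04). Its paralog SNX2 measured 56.8, 50.5 and 51.3 CPM with cSNX1.3 and 68.2, 80.3 and 73.2 CPM with erlotinib (log2 fold change −0.48, SE 0.09, adjusted p = 3.7e-04).

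The cascade between receptor and ERK changed less than its output. Of 21 tested members, 10 were higher with cSNX1.3 and 5 with erlotinib. The shares were 47.6% and 23.8%, beside 27.6% and 28.5% of all genes, and with library totals the counts were 9 and 8. The median was 0.04 (−0.13 with library totals, and 0.27 with offsets for GC content and length). MAP2K1, the gene of MEK1, measured 136, 129 and 124 CPM with cSNX1.3 and 70.4, 70.3 and 62.9 CPM with erlotinib (log2 fold change 0.93, SE 0.09, adjusted p = 2.3e-07), and the scaffold gene KSR1 had a log2 fold change of 0.97, SE 0.17. Both SOS genes, exchange factors that load RAS, were higher with erlotinib. SOS1 measured 99.3, 102 and 111 CPM with cSNX1.3 and 151, 213 and 185 CPM with erlotinib (log2 fold change −0.81, SE 0.12, adjusted p = 2.5e-05), and SOS2 had a log2 fold change of −0.91, SE 0.12. The other 6 were not called, and no member of the cascade passed 2-fold.

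PI3K, insulin receptor and FOXO genes split evenly, with 9 of 26 higher in each direction and a median of −0.07. With library totals the counts were 5 and 12, with a median of −0.23. Each direction held 34.62% of the list, beside 27.6% of all genes toward cSNX1.3 and 28.5% toward erlotinib. Adaptors that link insulin receptors to PI3K were higher with cSNX1.3, at 22.2, 24.5 and 24.7 CPM with cSNX1.3 and 10.5, 8.44 and 9.21 CPM with erlotinib for IRS1 (log2 fold change 1.34, SE 0.11, adjusted p = 7.8e-08) and 0.95 on the log2 scale for IRS2. INPP5D, the gene of the SHIP1 phosphatase, measured 6.98, 7.04 and 7.54 CPM with cSNX1.3 and 0.822, 0.652 and 0.633 CPM with erlotinib (log2 fold change 3.33, SE 0.18, adjusted p = 5.6e-10). Several regulators of PI3K and of FOXO were higher with erlotinib. PIK3IP1, a PI3K inhibitor, measured 13.7, 14.7 and 13.7 CPM with cSNX1.3 and 48.9, 49.8 and 49.7 CPM with erlotinib (log2 fold change −1.81, SE 0.11, adjusted p = 9.0e-10). PIK3R1, the p85 regulatory subunit, measured 43, 40.7 and 40.1 CPM with cSNX1.3 and 91.1, 118 and 111 CPM with erlotinib (log2 fold change −1.37, SE 0.10, adjusted p = 1.1e-08). FOXO4 (log2 fold change −1.42, SE 0.13) and BCL6 (log2 fold change −0.95, SE 0.09) were also higher with erlotinib, while FOXO1 (0.33, adjusted p = 0.0586) was not called.

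**Figure D3:**
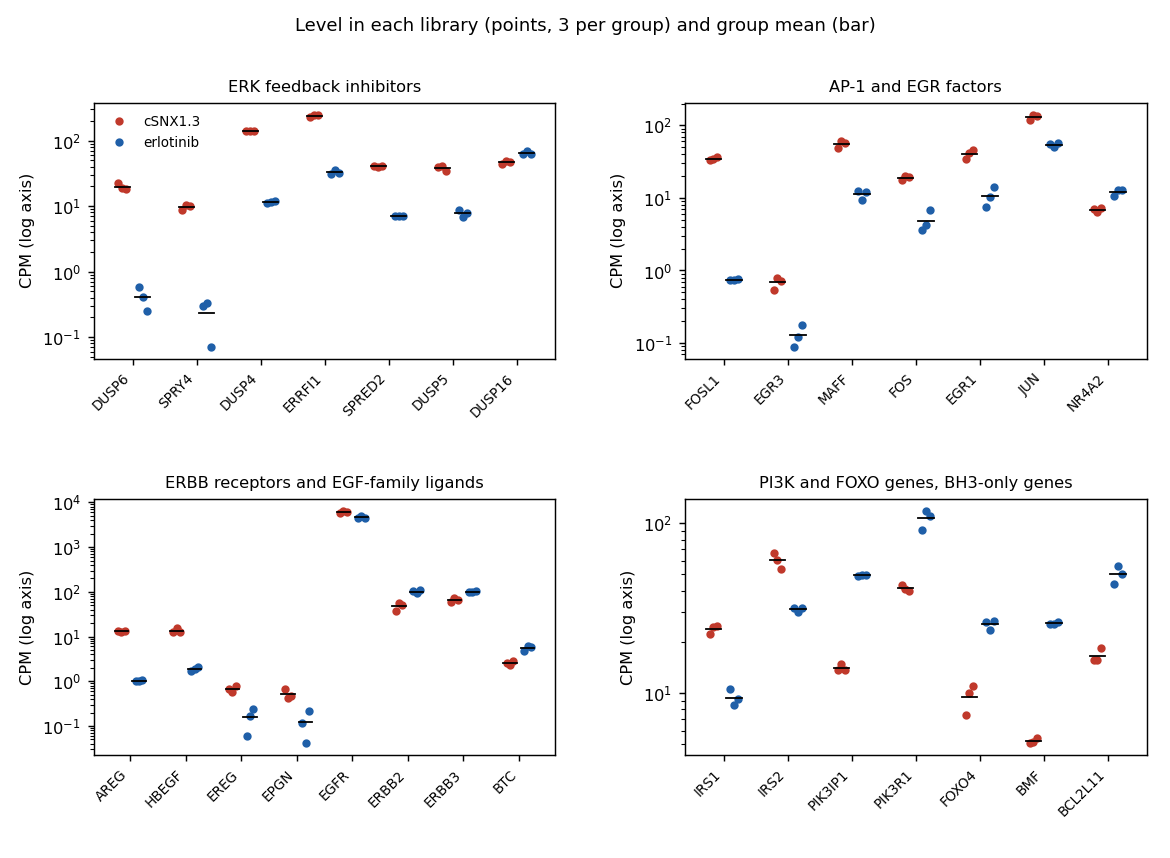
Normalized level (CPM, log axis) in each library of genes of 4 groups, with 3 points for cSNX1.3 (red), 3 for erlotinib (blue) and a bar at each group mean. For DUSP6 the cSNX1.3 libraries sit at 18 to 22.5 CPM and the erlotinib libraries at 0.246 to 0.587 CPM, while for PIK3IP1, BMF and BCL2L11 the erlotinib libraries are the higher ones.

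Genes of the BCL2 and death receptor families were split. Of 24 tested, 12 were higher with cSNX1.3 and 4 with erlotinib. The 4 were BH3-only killers and a death ligand. BMF measured 5.05, 5.13 and 5.40 CPM with cSNX1.3 and 25.5, 25.6 and 26.1 CPM with erlotinib (log2 fold change −2.31, SE 0.12, adjusted p = 3.5e-10). BCL2L11, the gene of BIM, which ERK and AKT signaling hold down, measured 15.5, 15.6 and 18.3 CPM with cSNX1.3 and 43.7, 56.1 and 49.9 CPM with erlotinib (log2 fold change −1.59, SE 0.11, adjusted p = 1.0e-08). HRK had a log2 fold change of −1.25, SE 0.18. TNFSF10, the gene of the death ligand TRAIL, measured 22.5, 23.6 and 22.3 CPM with cSNX1.3 and 61.2, 82.5 and 75.2 CPM with erlotinib (log2 fold change −1.68, SE 0.12, adjusted p = 7.1e-09). The 3 TRAIL receptor genes tested went the other way. TNFRSF10A, the gene of DR4, measured 19.1, 19.4 and 19.9 CPM with cSNX1.3 and 4.81, 5.14 and 4.29 CPM with erlotinib (log2 fold change 2.04, SE 0.13, adjusted p = 2.5e-09), TNFRSF10B, the gene of DR5, had a log2 fold change of 0.94, SE 0.11, and the decoy receptor gene TNFRSF10D had a log2 fold change of 1.78, SE 0.14. BAK1 (0.69) and BID (0.69) were higher with cSNX1.3, and MCL1 was not called (−0.21).

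The promoters of BCL2L11 and of SELENOP are shown for the FOXO motif, TGTTTAC or its reverse complement. SELENOP encodes the selenium carrier selenoprotein P, a known FOXO target, and was among the 10 largest differences toward erlotinib, at 2.16, 2.28 and 1.74 CPM with cSNX1.3 and 44.8, 54.0 and 46.0 CPM with erlotinib (log2 fold change −4.55, SE 0.15, adjusted p = 3.1e-12). In the 250 bases before each start, with the motif in capitals, BCL2L11 lies at chr2:111120664-111120913 (plus strand, motif beginning 223 bases before the start). SELENOP lies at chr5:42811893-42812142 (minus strand, 45 bases before the start).
BCL2L11: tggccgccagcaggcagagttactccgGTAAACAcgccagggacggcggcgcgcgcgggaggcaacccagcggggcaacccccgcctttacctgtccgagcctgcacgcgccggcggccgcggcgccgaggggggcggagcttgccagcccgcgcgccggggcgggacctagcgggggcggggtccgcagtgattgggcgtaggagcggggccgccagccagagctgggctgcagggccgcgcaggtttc
SELENOP: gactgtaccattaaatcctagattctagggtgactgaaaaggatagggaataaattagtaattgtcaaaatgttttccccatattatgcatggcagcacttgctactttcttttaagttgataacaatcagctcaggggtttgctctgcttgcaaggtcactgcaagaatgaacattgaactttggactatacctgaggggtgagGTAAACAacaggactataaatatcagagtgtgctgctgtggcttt
The motif stood in 4.16% of the windows of genes over 2-fold higher with erlotinib (43 of 1033), in 1.49% of those over 2-fold higher with cSNX1.3 (12 of 804) and in 2.33% of all windows. In the 100 bases before the start alone the shares were 1.74%, 0.373% and 0.683%. The windows of BMF, PIK3IP1 and TRIM63, all higher with erlotinib, held no match. Windows of genes over 2-fold higher with erlotinib also held fewer matches to the GC-rich SP1 motif GGGCGG, at 55.4%. That share was 66.5% toward cSNX1.3 and 69.1% in all windows. The part of base composition in the FOXO shares was not tested, and these matches describe letters only.

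G1 regulators moved in both directions. Of 25 G1 regulators tested, 10 were higher with cSNX1.3 and 6 with erlotinib, with a median of 0.22. The shares were 40.0% and 24.0%, beside 27.6% and 28.5% of all genes. With library totals the counts were 9 and 7, with a median of 0.05. CCND1, the gene of cyclin D1, measured 209, 215 and 227 CPM with cSNX1.3 and 33.7, 36.9 and 37.8 CPM with erlotinib (log2 fold change 2.59, SE 0.09, adjusted p = 5.5e-12). CCNE1, the gene of cyclin E1, had a log2 fold change of 1.10, SE 0.09, and CDK6 of 0.87, SE 0.11. The INK4 inhibitors CDKN2B and CDKN2C were higher with erlotinib. CDKN2B, the gene of p15, measured 35.8, 40.4 and 40.9 CPM with cSNX1.3 and 91.9, 92.9 and 90.1 CPM with erlotinib (log2 fold change −1.23, SE 0.09, adjusted p = 1.1e-08), and CDKN2C, the gene of p18, had a log2 fold change of −1.16, SE 0.09. The CIP/KIP genes split, with CDKN1A (p21) at 0.49 and CDKN1B (p27) at −0.36, both called.

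Few genes of DNA synthesis and mitosis passed 2-fold. In DNA replication 11 of 38 were higher with cSNX1.3 and 7 with erlotinib (7 and 14 with library totals). The shares were 28.95% and 18.42%, beside 27.6% and 28.5% of all genes. UHRF1 had a log2 fold change of 1.29, SE 0.14. The other 20, PCNA (−0.01) among them, were not called. In mitosis 3 of 33 were higher with cSNX1.3 and 13 with erlotinib, a share of 39.4% beside the 28.5% of all genes, and the median was −0.09. TOP2A, topoisomerase II alpha, measured 223, 214 and 219.8 CPM with cSNX1.3 and 330.3, 388 and 364 CPM with erlotinib (log2 fold change −0.72, SE 0.09, adjusted p = 4.4e-06). CCNB2 (−0.56) and NDC80 (−0.61) were also higher with erlotinib. MKI67, the proliferation marker Ki-67, overlapped between groups at 104, 172 and 169 CPM with cSNX1.3 and 102, 114 and 132 CPM with erlotinib (log2 fold change 0.36, SE 0.26, adjusted p = 0.269).

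Ribosome biogenesis was higher with cSNX1.3 in nearly every member. Of 38 ribosome biogenesis genes, 34 were higher with cSNX1.3 and 0 with erlotinib, with a median of 0.79. MYBBP1A, a nucleolar Myb-binding protein, measured 61.7, 60.8 and 63.9 CPM with cSNX1.3 and 15.2, 14.6 and 18.7 CPM with erlotinib (log2 fold change 1.94, SE 0.10, adjusted p = 4.1e-10). BOP1, which processes large-subunit ribosomal RNA, measured 108, 91.1 and 87.1 CPM with cSNX1.3 and 36.1, 25.7 and 28.3 CPM with erlotinib (log2 fold change 1.67, SE 0.13, adjusted p = 3.3e-08). NOLC1, a nucleolar scaffold, measured 193, 213 and 209 CPM with cSNX1.3 and 69.2, 82.8 and 84.2 CPM with erlotinib (log2 fold change 1.38, SE 0.10, adjusted p = 1.4e-08). Nucleolin (NCL, 1.05), fibrillarin (FBL, 0.77), dyskerin (DKC1, 0.75) and POLR1A, the largest subunit of RNA polymerase I (0.97) were also higher. With library totals 29 of the 38 were still higher with cSNX1.3, and 2 were higher with erlotinib. Most ribosomal protein genes were not called, with 4 of 46 higher with cSNX1.3, 2 higher with erlotinib and a median of 0.07 (0 and 11 with library totals, and 14 and 0 with offsets for GC content and length). As each library was left out in turn, 0 to 9 of them were higher with cSNX1.3, with 0 without erlotinib replicate 3 and 9 without erlotinib replicate 1, and 1 to 3 were higher with erlotinib.

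NOP16, a nucleolar protein of large-subunit assembly, measured 52.4, 50.2 and 42.3 CPM with cSNX1.3 and 19.5, 21.4 and 21.8 CPM with erlotinib (log2 fold change 1.21, SE 0.10, adjusted p = 6.6e-08). Its promoter is shown for the ETS core CCGGAA, read on both strands and in capitals, at chr5:176388599-176388848 (minus strand). Matches begin 249, 18 and 16 bases before the start, and the last 2 overlap.
NOP16: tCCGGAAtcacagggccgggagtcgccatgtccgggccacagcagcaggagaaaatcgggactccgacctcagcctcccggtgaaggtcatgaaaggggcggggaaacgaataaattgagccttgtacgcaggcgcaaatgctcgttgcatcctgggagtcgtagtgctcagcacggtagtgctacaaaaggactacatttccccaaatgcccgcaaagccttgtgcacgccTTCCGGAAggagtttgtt
The core was found in 16 of 32 windows of the ribosome biogenesis list, beside 28.9% of all windows. Among genes over 2-fold higher with cSNX1.3 or with erlotinib it was found in 16.2% and 17.4%, below the share of all genes.

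Energy metabolism separated by pathway. Of 30 glycolysis and hypoxia-response genes tested, 28 were higher with cSNX1.3 and 1 with erlotinib, with a median of 1.29. PFKP, the platelet phosphofructokinase, measured 791, 697 and 645 CPM with cSNX1.3 and 155, 133 and 138 CPM with erlotinib (log2 fold change 2.32, SE 0.11, adjusted p = 8.2e-11). PFKFB3, which makes the allosteric activator of phosphofructokinase, measured 167, 176 and 165 CPM with cSNX1.3 and 35.1, 36.1 and 39.1 CPM with erlotinib (log2 fold change 2.20, SE 0.09, adjusted p = 1.7e-11). CA9, carbonic anhydrase IX and a textbook target of hypoxia-inducible factor, measured 348, 315 and 292 CPM with cSNX1.3 and 65.1, 51.1 and 60.8 CPM with erlotinib (log2 fold change 2.43, SE 0.11, adjusted p = 6.1e-11). In each of them the lowest cSNX1.3 library was over 4 times the highest erlotinib library. LDHA (1.40), PGK1 (1.38), HK2 (1.10), the glucose transporter SLC2A1 (0.92) and VEGFA (1.36) were also higher. HIF1A, the inducible-factor gene itself, was not called (0.03). Subunits of oxidative phosphorylation were mostly not called, with 5 of 47 higher with cSNX1.3, 4 higher with erlotinib and a median of 0.05 (0 and 16 with library totals, and 17 and 2 with offsets for GC content and length).

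Of 34 genes of cholesterol and fatty acid synthesis, 22 were higher with cSNX1.3 and 4 with erlotinib, with a median of 0.37. HMGCS1, an early enzyme of the mevalonate route, measured 769, 724 and 755 CPM with cSNX1.3 and 259, 334 and 285 CPM with erlotinib (log2 fold change 1.36, SE 0.10, adjusted p = 2.1e-08). ACLY, which supplies acetyl-CoA, had a log2 fold change of 1.07, SE 0.09. SREBF1, the gene of a transcription factor of lipid synthesis, was higher with erlotinib at 116, 117 and 114 CPM with cSNX1.3 and 251, 195 and 252 CPM with erlotinib (log2 fold change −1.01, SE 0.10, adjusted p = 4.2e-07).

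Protein folding genes were largely higher with cSNX1.3. Of 24 cytosolic and mitochondrial chaperones, 20 were higher with cSNX1.3 and 3 with erlotinib. HSP90AB1, the constitutive HSP90, measured 3575, 3056 and 2944 CPM with cSNX1.3 and 1630, 1589 and 1539 CPM with erlotinib (log2 fold change 1.01, SE 0.11, adjusted p = 1.5e-06), and its co-chaperone gene STIP1 measured 635, 591 and 589.9 CPM with cSNX1.3 and 259.7, 257 and 224 CPM with erlotinib (log2 fold change 1.29, SE 0.09, adjusted p = 1.0e-08). CRYAB, a small heat shock protein, was higher with erlotinib (log2 fold change −0.95, SE 0.11). In the endoplasmic reticulum 15 of 25 were higher with cSNX1.3 and 5 with erlotinib. HSPA5, the gene of the lumenal chaperone BiP, had a log2 fold change of 0.91, SE 0.13, and SDF2L1 of 1.45, SE 0.18. The stress sensors and factors XBP1 (−0.73) and ATF6 (−0.64) were higher with erlotinib.

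The amino acid response governed by ATF4 did not separate as a group, with 9 of 32 higher with cSNX1.3 and 10 with erlotinib. These shares, 28.12% and 31.25%, were near the 27.6% and 28.5% of all genes. STC2 (log2 fold change 1.44, SE 0.10) and DDIT4, an mTOR inhibitor (log2 fold change 1.24, SE 0.10), were higher with cSNX1.3, and the cystine transporter SLC7A11 (log2 fold change −1.03, SE 0.13) and the serine enzyme PHGDH (log2 fold change −0.61, SE 0.10) were higher with erlotinib. The other 13 were not called. Lysosomal and autophagy genes leaned toward erlotinib, with 7 of 34 (20.6%) higher with cSNX1.3 and 14 (41.2%) higher with erlotinib. HEXA, a lysosomal hexosaminidase subunit, measured 14.2, 12.8 and 13.6 CPM with cSNX1.3 and 25.4, 24.9 and 24.4 CPM with erlotinib (log2 fold change −0.88, SE 0.10, adjusted p = 2.2e-06), and the autophagy gene GABARAPL1 was also higher with erlotinib (log2 fold change −0.67, SE 0.10). CTSB, cathepsin B, went the other way at 601, 534 and 508 CPM with cSNX1.3 and 254, 232 and 225 CPM with erlotinib (log2 fold change 1.21, SE 0.10, adjusted p = 7.9e-08).

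Genes of detoxification were among the largest differences toward erlotinib. Of the 8 tested genes of the aryl hydrocarbon receptor (AhR) pathway, 4 were higher with erlotinib and 3 with cSNX1.3. CYP1A1, the cytochrome P450 that AhR induces, measured 0.225, 0.207 and 0.217 CPM with cSNX1.3 and 7.60, 9.05 and 7.70 CPM with erlotinib (log2 fold change −5.20, SE 0.29, adjusted p = 6.2e-10). CYP1B1 measured 74.2, 62.3 and 65.1 CPM with cSNX1.3 and 377, 439 and 387 CPM with erlotinib (log2 fold change −2.58, SE 0.10, adjusted p = 1.1e-11). ALDH3A1, an aldehyde dehydrogenase, measured 0.360, 0.248 and 0.362 CPM with cSNX1.3 and 9.45, 9.18 and 9.25 CPM with erlotinib (log2 fold change −4.82, SE 0.23, adjusted p = 1.3e-10). For all 3 the erlotinib libraries were at least 5 times the cSNX1.3 libraries. TIPARP, another AhR-induced gene, went the other way (log2 fold change 0.65, SE 0.11). Erlotinib was given as a small molecule and cSNX1.3 as a peptide, and a dependence of these genes on the kind of agent was not tested. The median of the list turned from −0.47 to 0.11 when only genes with at least 10 counts in every library were kept.

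The promoter of CYP1A1 is shown for the AhR core GCGTG, in capitals, which begins 57 bases before the start at chr15:74725529-74725778 (minus strand, 250 bases before the start).
CYP1A1: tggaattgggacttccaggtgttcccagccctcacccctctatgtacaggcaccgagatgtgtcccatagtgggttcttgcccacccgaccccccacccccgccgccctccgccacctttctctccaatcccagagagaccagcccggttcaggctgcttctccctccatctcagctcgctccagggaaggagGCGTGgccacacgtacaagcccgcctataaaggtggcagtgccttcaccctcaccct
This core is short and stood in 50.02% of all windows, in 40.7% of those over 2-fold higher with erlotinib and in 45.6% of those over 2-fold higher with cSNX1.3.

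Antioxidant genes of the NRF2 program also leaned toward erlotinib, with 13 of 25 higher with erlotinib, 3 with cSNX1.3 and a median of −0.30. NFE2L2, the gene of NRF2, measured 109, 109.8 and 109.8 CPM with cSNX1.3 and 199, 236 and 226 CPM with erlotinib (log2 fold change −1.01, SE 0.09, adjusted p = 7.7e-08). HMOX1, heme oxygenase 1, measured 12.3, 11.7 and 12 CPM with cSNX1.3 and 27.1, 23.9 and 30.5 CPM with erlotinib (log2 fold change −1.18, SE 0.11, adjusted p = 2.4e-07), and AKR1C2, an aldo-keto reductase with near-identical paralogs, had a log2 fold change of −1.60, SE 0.12. NQO1, which answers to both AhR and NRF2, measured 138, 112 and 112 CPM with cSNX1.3 and 219, 224 and 219.7 CPM with erlotinib (log2 fold change −0.87, SE 0.10, adjusted p = 1.3e-06). The other 9 were not called.

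More epidermal genes were higher with cSNX1.3 than with erlotinib, and of the 3 epidermal lists the keratins had the highest median. Of 19 keratins, 14 were higher with cSNX1.3 and 2 with erlotinib, with a median of 1.54. KRT6A, a keratin of activated and wounded epidermis, measured 1432, 1201 and 1126 CPM with cSNX1.3 and 37.2, 28.2 and 26.6 CPM with erlotinib (log2 fold change 5.35, SE 0.18, adjusted p = 3.1e-12). KRT6B measured 896, 771 and 692 CPM with cSNX1.3 and 61.8, 40.0 and 36.7 CPM with erlotinib (log2 fold change 4.09, SE 0.21, adjusted p = 5.6e-09). Reads of KRT6A, KRT6B and KRT6C can be split between these near-identical copies, so their separate values are uncertain. The basal keratin KRT5 (1.57) and the luminal keratins KRT8 (1.46) and KRT18 (1.70) were all higher with cSNX1.3. KRT16 was higher with erlotinib at 131, 119 and 106 CPM with cSNX1.3 and 225, 191 and 205 CPM with erlotinib (log2 fold change −0.80, SE 0.12, adjusted p = 2.4e-05), and KRT14 was not called (0.27). Of 19 cornified envelope genes, 12 were higher with cSNX1.3 and 3 with erlotinib, with a median of 0.59. SPRR1B, a cross-linked envelope protein, measured 3.06, 3.10 and 3.08 CPM with cSNX1.3 and 0.675, 0.816 and 0.739 CPM with erlotinib (log2 fold change 2.06, SE 0.20, adjusted p = 3.4e-07), and IVL, involucrin, was not called (0.16). Of 14 S100 genes, 8 were higher with cSNX1.3 and 0 with erlotinib, with a median of 0.56 and S100A10 at a log2 fold change of 1.48, SE 0.09.

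Serpins and the plasminogen system had the second highest median, 1.96, with 14 of 18 higher with cSNX1.3 and 3 with erlotinib. SERPINB3, a squamous-cell protease inhibitor, measured 49.1, 38.4 and 39.1 CPM with cSNX1.3 and 1.35, 1.14 and 0.422 CPM with erlotinib (log2 fold change 5.42, SE 0.23, adjusted p = 7.0e-11). Its close copy SERPINB4 measured 32.6, 28.5 and 27.9 CPM with cSNX1.3 and 1.12, 0.856 and 0.703 CPM with erlotinib (log2 fold change 5.03, SE 0.16), and reads may be split between the 2 genes. SERPINB7 had a log2 fold change of 3.65, SE 0.12 and SERPINE2 of 3.33, SE 0.15. The 2 plasminogen activators were opposed. PLAT, the tissue-type activator, measured 14.6, 10.6 and 11.7 CPM with cSNX1.3 and 0.381, 0.449 and 0.598 CPM with erlotinib (log2 fold change 4.69, SE 0.22, adjusted p = 7.0e-11). PLAU, urokinase, measured 8.83, 10.7 and 9.31 CPM with cSNX1.3 and 32.6, 36.3 and 41.7 CPM with erlotinib (log2 fold change −1.94, SE 0.12, adjusted p = 2.5e-09), although its receptor gene PLAUR was higher with cSNX1.3 (log2 fold change 2.16, SE 0.10).

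F3, tissue factor, measured 161, 178 and 178 CPM with cSNX1.3 and 8.83, 12.1 and 9.5 CPM with erlotinib (log2 fold change 4.10, SE 0.12, adjusted p = 1.1e-12), and IL1RL1, the receptor of interleukin 33, was the largest called difference of all among genes averaging 1 CPM or more. IL1RL1 measured 5.23, 5.05 and 5.47 CPM with cSNX1.3 and 0.0293, 0 and 0.0352 CPM with erlotinib, with 2 counts in the 3 erlotinib libraries together, a count ratio of 229 (95% exact interval 63.0 to 1897, counting error only). The promoters of both are shown for the AP-1 motif TGANTCA, in capitals, the site of FOS and JUN dimers, in the 250 bases before the start. F3 lies at chr1:94541760-94542009 (minus strand, motifs beginning 223 and 210 bases before the start). IL1RL1 lies at chr2:102337007-102337256 (plus strand, 191 bases before the start).
F3: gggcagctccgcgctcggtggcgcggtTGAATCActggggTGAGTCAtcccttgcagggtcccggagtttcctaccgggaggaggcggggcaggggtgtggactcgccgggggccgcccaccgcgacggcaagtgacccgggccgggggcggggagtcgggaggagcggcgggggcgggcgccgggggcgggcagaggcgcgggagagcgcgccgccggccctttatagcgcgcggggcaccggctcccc
IL1RL1: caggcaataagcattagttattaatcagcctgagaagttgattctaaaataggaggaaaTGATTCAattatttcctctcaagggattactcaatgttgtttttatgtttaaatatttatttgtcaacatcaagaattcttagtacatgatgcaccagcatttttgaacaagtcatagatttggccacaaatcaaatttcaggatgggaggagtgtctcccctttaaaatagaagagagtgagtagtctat
The motif was found in 9.70% of the windows of genes over 2-fold higher with cSNX1.3 (78 of 804), in 6.29% of those over 2-fold higher with erlotinib (65 of 1033) and in 4.82% of all windows. In the 100 bases before the start the shares were 3.86%, 1.45% and 1.66%. The windows of DUSP6 and SPRY4 held no match. Like the CArG boxes, these matches describe letters only.

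**Figure D4:**
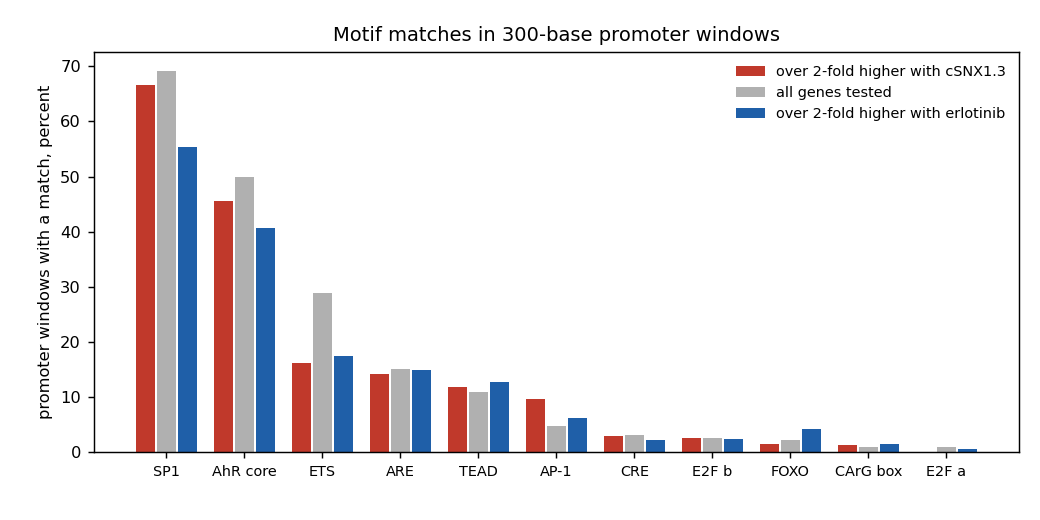
Share of 300-base promoter windows (250 bases before to 50 after the start, percent) with at least 1 match to each of 11 motifs on either strand, for genes over 2-fold higher with cSNX1.3 (red, 804 windows), all genes tested (grey, 11421 windows) and genes over 2-fold higher with erlotinib (blue, 1033 windows). AP-1 matches are most frequent in the red group at 9.70% and FOXO matches in the blue group at 4.16%, whereas ETS matches are less frequent in both than in all genes.

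Adhesion and the cytoskeleton were mostly higher with cSNX1.3. Of 25 integrins, laminins and collagens, 17 were higher with cSNX1.3 and 3 with erlotinib, with a median of 0.87. ITGA5, the fibronectin receptor subunit, measured 33.8, 29.1 and 28.1 CPM with cSNX1.3 and 5.52, 6.65 and 5.80 CPM with erlotinib (log2 fold change 2.34, SE 0.12, adjusted p = 2.6e-10), and ITGA2, the collagen receptor subunit, had a log2 fold change of 2.07, SE 0.11. ITGB6 (log2 fold change −0.91, SE 0.11) and ITGAV (log2 fold change −0.57, SE 0.10) were higher with erlotinib. Of 26 SRF and actin genes, 18 were higher with cSNX1.3 and 1 with erlotinib, with a median of 0.77. ACTB, beta actin, measured 6917, 5514 and 5431 CPM with cSNX1.3 and 2330, 2017 and 2116 CPM with erlotinib (log2 fold change 1.47, SE 0.13, adjusted p = 1.6e-07), and FLNA measured 5881, 5785 and 5202 CPM with cSNX1.3 and 2295, 1791 and 1860 CPM with erlotinib (log2 fold change 1.5, SE 0.12, adjusted p = 3.8e-08). Of 20 YAP-TEAD genes, 11 were higher with cSNX1.3 and 3 with erlotinib, with the receptor tyrosine kinase AXL at a log2 fold change of 2.38, SE 0.22 and CCN2 at a log2 fold change of 1.08, SE 0.14.

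Of 23 cadherin and epithelial-mesenchymal transition genes, 10 were higher with cSNX1.3 and 3 with erlotinib. VIM, the mesenchymal filament vimentin, measured 70.0, 60.5 and 65.2 CPM with cSNX1.3 and 11.8, 12.8 and 13.7 CPM with erlotinib (log2 fold change 2.35, SE 0.10, adjusted p = 5.1e-11). CDH1, E-cadherin, measured 90.6, 82.0 and 80.6 CPM with cSNX1.3 and 132, 131 and 123 CPM with erlotinib (log2 fold change −0.61, SE 0.08, adjusted p = 1.3e-05), and the tight junction gene CLDN1 measured 22.9, 20.1 and 20.5 CPM with cSNX1.3 and 72.1, 77.6 and 67.4 CPM with erlotinib (log2 fold change −1.77, SE 0.10, adjusted p = 5.0e-10). SNAI1, a repressor of E-cadherin, was not called (−0.26, adjusted p = 0.292). Metalloproteinases and sheddases were split, with 5 of 15 higher with cSNX1.3 and 2 with erlotinib. With library totals these counts were 3 and 6, and with offsets for GC content and length 4 and 3. On the TMM scale the shares were 33.33% and 13.33%, beside 27.6% and 28.5% of all genes. ADAM9 (log2 fold change 1.36, SE 0.09) and MMP7 (log2 fold change 1.04, SE 0.10) were higher with cSNX1.3, MMP14 (log2 fold change −0.65, SE 0.11) was higher with erlotinib, and ADAM17, the main sheddase of EGF-family ligands, was not called (−0.11).

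Immune genes separated the treatments in opposite directions by class. Of 38 interferon-stimulated genes tested, 27 were higher with erlotinib and 4 with cSNX1.3, with a median of −0.73. TRIM22, an antiviral ubiquitin ligase, measured 4.87, 4.35 and 4.42 CPM with cSNX1.3 and 23.7, 30.8 and 23.2 CPM with erlotinib (log2 fold change −2.51, SE 0.14, adjusted p = 6.2e-10). IFIT1, a sensor of foreign RNA caps, measured 1.62, 0.952 and 1.27 CPM with cSNX1.3 and 5.52, 8.20 and 8.72 CPM with erlotinib (log2 fold change −2.54, SE 0.23, adjusted p = 1.3e-07), and RSAD2, viperin, measured 0.766, 0.952 and 1.12 CPM with cSNX1.3 and 4.37, 5.02 and 5.06 CPM with erlotinib (log2 fold change −2.33, SE 0.24, adjusted p = 6.0e-07). MX1 (−1.05), IFIT3 (−1.37) and the transcription factor IRF1 (−0.73) were called in the same direction. The 4 exceptions were ISG20, OAS1, OAS3 and ISG15, the last of them not called with library totals (0.25). ISG20, an exonuclease, measured 36.7, 24.6 and 25.8 CPM with cSNX1.3 and 6.90, 6.12 and 6.37 CPM with erlotinib (log2 fold change 2.16, SE 0.17, adjusted p = 2.9e-08), and OAS1, an oligoadenylate synthetase, measured 49.5, 49.5 and 46.5 CPM with cSNX1.3 and 16.3, 15.3 and 15.5 CPM with erlotinib (log2 fold change 1.62, SE 0.10, adjusted p = 1.5e-09).

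Class I antigen presentation leaned the same way with a median of −0.27, with 9 of 21 higher with erlotinib and 3 with cSNX1.3. The shares were 42.9% and 14.3%, beside 28.5% and 27.6% of all genes. With library totals the counts were 15 and 2. Over 2-fold, 2 were higher with erlotinib and 1 with cSNX1.3. B2M, the light chain of class I, measured 691, 591 and 524 CPM with cSNX1.3 and 776, 886 and 865 CPM with erlotinib (log2 fold change −0.48, SE 0.12, adjusted p = 0.00255), a call not kept with offsets for GC content and length (−0.21). ERAP1, which trims peptides, measured 47.7, 43.7 and 44.4 CPM with cSNX1.3 and 91.6, 111 and 103 CPM with erlotinib (log2 fold change −1.17, SE 0.09, adjusted p = 3.9e-08), and PSMB9, an immunoproteasome subunit, had a log2 fold change of −1.13, SE 0.12. HLA-B (−0.27) and HLA-C (−0.27) were not called, and reads can be split among HLA genes. HLA-E, a ligand of the inhibitory NK receptor NKG2A, had a log2 fold change of −0.35, SE 0.10 (adjusted p = 0.00608). TAP2, a peptide transporter subunit, was higher with cSNX1.3 at 75.4, 72.8 and 73.5 CPM with cSNX1.3 and 32.2, 33.8 and 34.3 CPM with erlotinib (log2 fold change 1.14, SE 0.08, adjusted p = 1.1e-08).

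Ligands of NK cell receptors and immune checkpoints were mostly higher with cSNX1.3, in 15 of 23 tested, against 5 higher with erlotinib. Ligands of the activating receptor NKG2D made up much of the group. MICA measured 89.8, 88 and 80.9 CPM with cSNX1.3 and 43.7, 40.4 and 38.2 CPM with erlotinib (log2 fold change 1.08, SE 0.09, adjusted p = 3.7e-08). MICB measured 40.5, 41.7 and 40.7 CPM with cSNX1.3 and 16.2, 15.9 and 14.2 CPM with erlotinib (log2 fold change 1.41, SE 0.10, adjusted p = 7.6e-09), and ULBP2 measured 16.6, 18.5 and 15 CPM with cSNX1.3 and 5.84, 6.20 and 7.03 CPM with erlotinib (log2 fold change 1.40, SE 0.13, adjusted p = 2.6e-07). RAET1L (log2 fold change 3.50, SE 0.35), RAET1E (log2 fold change 2.52, SE 0.40) and ULBP3 (log2 fold change 1.15, SE 0.15) were also higher, with the caution that reads of this family can be shared. ULBP1 alone among the called NKG2D ligands was higher with erlotinib, at 9.28, 11.8 and 10.8 CPM with cSNX1.3 and 15.2, 19.7 and 17.8 CPM with erlotinib (log2 fold change −0.72, SE 0.16, adjusted p = 0.00135). PVR, the ligand of DNAM-1 and TIGIT, measured 167, 190.3 and 187 CPM with cSNX1.3 and 65.8, 62.7 and 63.4 CPM with erlotinib (log2 fold change 1.5, SE 0.10, adjusted p = 2.6e-09), and NCR3LG1, the B7-H6 ligand of NKp30, had a log2 fold change of 1.70, SE 0.23.

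Checkpoint genes were not of one direction. CD274, the gene of PD-L1, stayed below 1 CPM in all 6 libraries, at 0.811, 0.911 and 0.870 CPM with cSNX1.3 and 0.352, 0.449 and 0.246 CPM with erlotinib (log2 fold change 1.31, SE 0.37, adjusted p = 0.00671). VTCN1, the gene of B7-H4, measured 180.1, 188 and 178 CPM with cSNX1.3 and 474, 551 and 509 CPM with erlotinib (log2 fold change −1.49, SE 0.09, adjusted p = 1.3e-09), and LGALS9, galectin 9, had a log2 fold change of −1.25, SE 0.16. The adhesion ligand ICAM1 (log2 fold change 1.38, SE 0.08) and CEACAM1 (log2 fold change 2.32, SE 0.15) were higher with cSNX1.3. CD47 (0.59) and CD276 (0.50) were higher with cSNX1.3 by less than 2-fold.

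Of 34 chemokine and interleukin genes listed, 18 were tested, and 10 were higher with cSNX1.3 against 3 with erlotinib. CXCL8, interleukin 8, measured 31.8, 22.3 and 23.2 CPM with cSNX1.3 and 1.14, 1.71 and 1.02 CPM with erlotinib (log2 fold change 4.33, SE 0.19, adjusted p = 4.7e-11). LIF, an interleukin 6 family cytokine, measured 16.4, 20.5 and 23.7 CPM with cSNX1.3 and 1.53, 1.18 and 1.3 CPM with erlotinib (log2 fold change 3.90, SE 0.18, adjusted p = 8.6e-11), and CCL22 measured 20.9, 20.7 and 21.7 CPM with cSNX1.3 and 3.64, 4.65 and 5.21 CPM with erlotinib (log2 fold change 2.24, SE 0.13, adjusted p = 7.9e-10). CCL28, a mucosal chemokine, was higher with erlotinib at 12.8, 14.9 and 17.4 CPM with cSNX1.3 and 41.1, 53.4 and 48.1 CPM with erlotinib (log2 fold change −1.65, SE 0.13, adjusted p = 3.8e-08), and so was IL15, a growth factor of NK cells (log2 fold change −0.68, SE 0.18, adjusted p = 0.00356), though not with offsets for GC content and length (−0.41). CXCL10, the interferon-induced ligand of CXCR3, was barely detected, with a count ratio of 3.91 toward erlotinib (95% exact interval 1.45 to 13.2), and it was not called when any 1 of 4 of the libraries was left out. CX3CL1, fractalkine, had a log2 fold change of 0.74, SE 0.09.

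**Figure D5:**
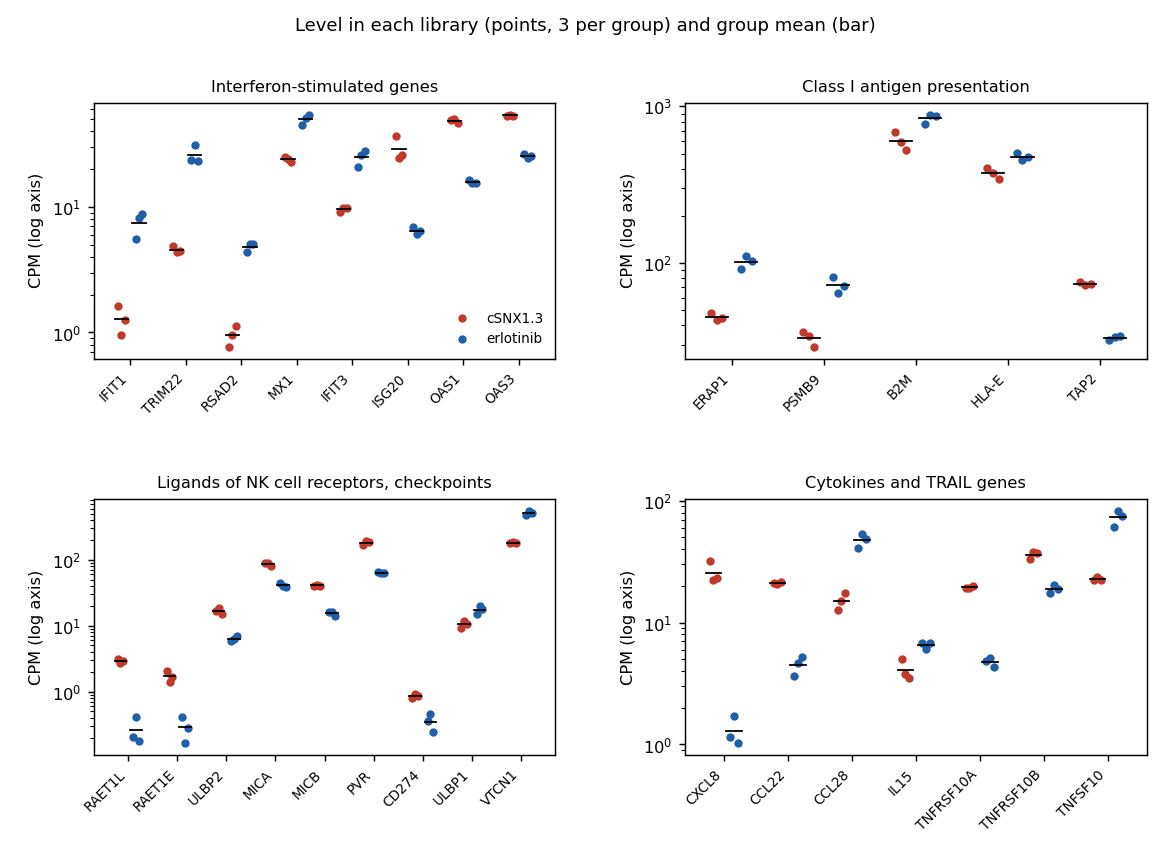
Normalized level (CPM, log axis) in each library of immune genes, with 3 points for cSNX1.3 (red), 3 for erlotinib (blue) and a bar at each group mean. Most interferon-stimulated genes are higher with erlotinib, as TRIM22 at 23.2 to 30.8 CPM against 4.35 to 4.87 CPM, and most NKG2D ligands are higher with cSNX1.3, as MICA at 80.9 to 89.8 CPM against 38.2 to 43.7 CPM.

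The endosomal machinery that sorts EGFR had a median near 0 that moved with the scaling. Of 39 sorting nexin, retromer and endosome genes, 12 were higher with cSNX1.3 and 7 with erlotinib, with a median of 0.01 (10 and 14, median −0.15, with library totals, and 18 and 10, median 0.20, with offsets for GC content and length). CLTB, a clathrin light chain, measured 369, 347 and 308 CPM with cSNX1.3 and 133, 100.3 and 103 CPM with erlotinib (log2 fold change 1.61, SE 0.12, adjusted p = 1.4e-08), and SNX9, which shapes endocytic membranes, had a log2 fold change of 1.12, SE 0.08. SNX1, SNX2 and SNX6 (log2 fold change −0.54, SE 0.12), the BAR-domain sorting nexins of the retromer coat, were higher with erlotinib by less than 2-fold, and SNX5 (−0.15) was not called. Of 39 genes of Golgi-to-ER retrograde transport and nuclear import, 12 were higher with cSNX1.3 and 3 with erlotinib. With library totals these counts were 7 and 10, and with offsets for GC content and length 21 and 2. In each of these 2 lists 30.77% were higher with cSNX1.3 on the TMM scale, near the 27.6% of all genes. The shares higher with erlotinib were 17.95% for the endosomal list and 7.69% for the import list, beside 28.5% of all genes. KPNB1, importin beta, measured 411, 442 and 443 CPM with cSNX1.3 and 276, 307 and 294 CPM with erlotinib (log2 fold change 0.56, SE 0.09, adjusted p = 6.0e-05), and SEC61B, a translocon subunit, had a log2 fold change of 0.65, SE 0.10. SEC61G, which lies near EGFR on chromosome 7, had a log2 fold change of 0.99, SE 0.12, and COPG2, a COPI coat subunit, had a log2 fold change of −0.78, SE 0.09.

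Of 13 genes described as targets of nuclear EGFR, 9 were tested, with 5 higher with cSNX1.3 and 1 with erlotinib. CCND1, MYC (log2 fold change 0.77, SE 0.09) and BCL2 (log2 fold change 0.67, SE 0.15) were among the 5, AURKA (0.17) was not called, and PTGS2 had 0 counts in all 6 libraries. Breast lineage genes were divided, with 7 of 20 higher with cSNX1.3 and 10 with erlotinib. ALDH1A3 (log2 fold change 1.43, SE 0.08) and SOX9 (log2 fold change 1.0, SE 0.09) were higher with cSNX1.3. MUC1 measured 50.5, 44.4 and 45 CPM with cSNX1.3 and 103, 106 and 105 CPM with erlotinib (log2 fold change −1.17, SE 0.08, adjusted p = 1.1e-08). EHF (log2 fold change −1.04, SE 0.10) was also higher with erlotinib. So were ELF5 (log2 fold change −2.52, SE 0.49) and KIT (log2 fold change −1.95, SE 0.43), both below 2 CPM in all 6 libraries.

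The 10 largest called differences toward cSNX1.3, in descending order, were IL1RL1, IL1R2, FOSL1, DUSP6, SERPINB3, SPRY4, KRT6A, SPOCD1, SERPINB4 and CLMP. The genes not yet described were IL1R2, the decoy receptor of interleukin 1, at 5.23, 3.10 and 3.59 CPM with cSNX1.3 and 0.0587, 0.0816 and 0 CPM with erlotinib, with a count ratio of 85.3 (95% exact interval 33.0 to 315), and CLMP, a junction adhesion protein (log2 fold change 4.91, SE 0.24). The 10 largest toward erlotinib were GPR12, CYP1A1, POU2AF1, ALDH3A1, TRIM63, SHROOM4, SELENOP, SNCAIP, SEMA5B and SLC15A2. GPR12, an orphan receptor coupled to G proteins, measured 0.180, 0.0414 and 0.145 CPM with cSNX1.3 and 8.16, 5.55 and 6.68 CPM with erlotinib (log2 fold change −5.75, SE 0.38, adjusted p = 4.0e-09). POU2AF1, a transcriptional coactivator best known from B cells, measured 0.135, 0.124 and 0.217 CPM with cSNX1.3 and 4.37, 6.93 and 6.19 CPM with erlotinib (log2 fold change −5.12, SE 0.38, adjusted p = 1.6e-08). TRIM63, a muscle ubiquitin ligase and known FOXO target, measured 0, 0 and 0.217 CPM with cSNX1.3 and 1.58, 1.96 and 3.27 CPM with erlotinib (log2 fold change −4.74, SE 0.64, adjusted p = 1.2e-05). SLC15A2, a peptide transporter, measured 1.94, 1.57 and 1.23 CPM with cSNX1.3 and 25.6, 34.9 and 30.2 CPM with erlotinib (log2 fold change −4.27, SE 0.17, adjusted p = 1.7e-11). SHROOM4 had a count ratio of 27.6 toward erlotinib (95% exact interval 12.5 to 76.2), and SNCAIP (log2 fold change −4.36, SE 0.34) and SEMA5B (log2 fold change −4.28, SE 0.31) were similar in size. This ranking took only genes whose groups did not overlap, so the separation of the groups in all of these follows from the rule.

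Among non-coding and pseudogene entries the 3 largest were BCAR3-AS1, MYH16 and COLCA1. MYH16, an inactivated muscle myosin gene, measured 8.33, 11.4 and 11.6 CPM with cSNX1.3 and 0.293, 0.204 and 0.246 CPM with erlotinib (log2 fold change 5.35, SE 0.31, adjusted p = 7.3e-10). COLCA1 measured 0.496, 0.207 and 0.290 CPM with cSNX1.3 and 6.96, 7.99 and 9.04 CPM with erlotinib (log2 fold change −4.60, SE 0.31, adjusted p = 4.8e-09). BCAR3-AS1 lies antisense to another gene, and because the counts ignored strand its reads cannot be told apart from those of its partner. It had a count ratio of 58.3 toward erlotinib (95% exact interval 19.7 to 285). Counting of overlapping genes also limits some members of the lists: PPL, an envelope protein, had 0 counts in all 6 libraries, and whether an overlapping gene model took its reads was not tested.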

How the data were processed

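Poly(A) RNA of MDA-MB-468 cultures was sequenced as paired reads. Per the labels and the study's methods, the authors trimmed reads with TrimGalore, aligned them to GRCh38 with STAR and counted read pairs per gene with featureCounts without regard to strand. The deposited values are raw counts for 61552 genes, and the annotation release used is not given in the sources used here. Gene names come from GENCODE.

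Counts of the 9 cSNX1.3, erlotinib and EGF libraries were filtered by group with filterByExpr, scaled by TMM and fitted with the robust quasi-likelihood test of edgeR 4.0.16 in R 4.3.3. The contrast was cSNX1.3 minus erlotinib, 3 libraries against 3, and p-values were adjusted by Benjamini-Hochberg over the 15738 genes tested, with 0.05 as the threshold. Every adjusted p printed is from this fit, and SE is that of the log2 fold change. CPM are on the TMM scale. Counting intervals are exact at 95% and, like the floor of 3 counts, cover counting error only. Nothing in the sources says that replicates came from separate experiments, so p-values measure the spread between these libraries, which may be technical.

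The genes named were the receptors and sorting nexins at issue, and members of the lists, giving called members with large differences first. Also named were the 10 largest called differences in each direction among protein-coding genes averaging 1 CPM or more. To these the 3 largest non-coding entries were added. Both rankings took only genes whose groups did not overlap. Uncalled members and some smaller called ones were chosen after their values were seen. Members and lists were chosen with earlier results of these data known. A motif was searched on both strands of RefSeq promoter windows (GRCh38.p14, 250 bases before to 50 after each start), matched by symbol (11421 windows for 11423 of the genes tested). Alternatives were other scalings (DESeq2 size factors, library totals), count filters, sets of libraries, each replicate left out, a block for replicate number, offsets for GC content and length, DESeq2 1.42.0, a threshold of 0.01 and a shorter promoter window. The 6 libraries of EGFR lines entered only the alternative with all 15.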

Additional observations from a re-analysis of the deposited data

How the results depend on the processing

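Of 3507 refitted fold changes of the 221 genes named, 15 changed sign, 13 lost their call and 30 passed the threshold where the gene had not been called. Those 30 were in 11 genes, with 7 in HLA-C, 5 in HLA-B, 4 in MCL1, 3 each in FOXO1 and KRT14, and 1 or 2 each in ADAM17, AURKA, FOSL2, HIF1A, PCNA and SNX5. The sign changes were all in genes that were not called. With library totals the log2 fold change was −0.14 for HIF1A, −0.15 for TGFA and −0.0024 for AURKA. With offsets for GC content and length it was 0.022 for ADAM17 and 0.21 for PCNA. PCNA was at 0.0069 with DESeq2 size factors, 0.0002 with all 15 libraries and 0.0068 with DESeq2, and TGFA was at −0.0027 with at least 10 counts in every library. With 1 library left out at a time, it ranged from −0.069 to 0.12 for HIF1A, from −0.029 to 0.065 for TGFA and from −0.082 to 0.071 for PCNA. Leaving out 1 library gave 7718 to 8770 genes called, and DESeq2 gave 8659. When only genes with at least 10 counts in every library were tested, which removes genes low in one group, 1864 genes passed 2-fold in place of 2830, with 1013 of them higher with erlotinib in place of 1627. Over all genes tested in place of the 500 most variable, the first principal component took 78.4% of the variance.

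The number of lists with more members higher with cSNX1.3 was 22 with library totals and 27 to 30 under the other settings. All 38 list medians moved with library totals, and 20 moved with the offsets. Deviations of same-numbered libraries correlated at 0.11, −0.087 and 0.13, and those of differently numbered libraries at −0.159 to 0.073. No test of a pairing by replicate number was made. A replicate block gave 8643 genes called. Of 33 motif shares, 29 moved in the shorter window. It covers 100 bases of the 300, so lower shares follow from its length. This count therefore does not say whether the order of the groups changed. With 3 libraries a group, genes with few counts have wide intervals.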
